A study of Homo sapiens with 4 samples.

Results

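Receptor tyrosine kinases are the cell-surface enzymes through which growth factors, and in the case of the discoidin domain receptors collagens, act on a cell. Many of these receptors pair with a second one once bound, and the pair phosphorylates tyrosines on its own tails. Adaptor proteins recruited there feed the RAS-ERK and PI3K-AKT relays. Removal by ubiquitin ligases, phosphatases and inhibitor proteins ends the signal, and genes induced by ERK damp it further. In breast carcinoma ERBB2 is best known for gene amplification, whereas AXL, EGFR, MET and the PDGF receptors are typical of carcinoma cells with a mesenchymal phenotype.

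The 10 receptors described here are EGFR, ERBB2, MET, AXL, PDGFRA, PDGFRB, FGFR1, DDR1, DDR2 and IGF1R. They were named as a list of receptors found on breast carcinoma cells, and all 10 were found by symbol among the 60721 genes of the count table. All 10 also passed the filter on low counts, together with 16137 genes in all. The cells were HS578T, an established line from a human breast carcinoma. Cells of both groups were co-transfected with GFP, in medium that held insulin. The control group (SCR) received a non-targeting RNA and the other group (siTLN1) an siRNA against TLN1, the gene of the integrin-binding adaptor talin-1, each at 1.6 µM for 48 h, with 2 biological replicates per group. The labels name 1 line and no siRNA sequence, so an effect of talin-1 loss and an effect of this siRNA preparation on other transcripts cannot be told apart.

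Total counts ran from 31854322 to 46353297 per library, and replicates of a group differed by more than counting noise. TLN1 stood at 868 and 874 CPM in SCR, counts relative to library size after TMM scaling. In siTLN1 it stood at 51.9 and 44.8 CPM, or 5.55% of the control mean. Libraries are called a and b after a number in the column names that recurs in both groups. The line was checked against markers. All 7 mesenchymal markers were expressed, led by FN1 and SPARC, and 2 of them (CDH2 and SPARC) were called lower in siTLN1. Of 9 luminal markers 5 passed the filter on low counts, namely KRT18 (a mean of 117 CPM in SCR), KRT8 (18.9 CPM), GATA3 (10.1 CPM), FOXA1 (3.25 CPM) and CDH1 (0.463 CPM). The other luminal markers, ESR1, PGR, KRT19 and EPCAM, had at most 6 counts in any library. Among leukocyte markers PTPRC had 12 to 20 counts, CD14 had 24 to 36 and CD3E had 0. Of the endothelial markers PECAM1 had 104 to 155 counts and was not called (log2 fold change −0.41). CDH5 had at most 7 counts and VWF 3 to 12. RNA was taken from whole cultures, so fewer cells of a kind and less RNA per cell cannot be told apart.

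Among the 10 receptors only DDR1 was called. It fell to 51.8% of its control level, and none of the other 9 receptors passed the test. With 2 libraries per group, missing the threshold does not show that a level was unchanged. The confidence interval of IGF1R lay wholly above no change (0.13 to 0.58 on the log2 scale), and that of PDGFRA wholly below it (−0.41 to −0.007). A limma-trend fit with equal replicate numbers as a block called 6 of the 10 receptors. Across all genes tested, 980 of 16137 (6.07%) passed an adjusted p of 0.05 (edgeR quasi-likelihood fit, Benjamini-Hochberg), 3.77% of all genes as lower and 2.3% as higher. Among the receptors 1 of 10 was called, as lower. Regardless of sign, the median log2 fold change was 0.18 over the 10 receptors and 0.16 over all tested genes, so the receptor list as a whole sat near the background.

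Beside the values stand 3 short stretches of receptor 3′ UTR. They are shown because they hold the 7-base word GACAACA, which in an earlier look at these same data went with lower fold changes across genes. The word was counted in the 3′ UTRs of the GENCODE 29 coding transcripts on GRCh38, on the transcript strand, and a match is a description of letters only. Capitals mark the word, and each stretch reads 5′ to 3′ on the plus strand.
DDR1, chr6:30899645-30899673: gggccccactgGACAACActgattcctgg
IGF1R, chr15:98957684-98957712: agaaccttaatGACAACActtaatagcaa
MET, chr7:116796336-116796364: cctgcagccgtGACAACActcctgtcata

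In DDR1 the word lies in 9 of 13 coding transcripts, in IGF1R in 4 of 4 and in MET in 1 of 4. No 3′ UTR of the other 7 receptors holds it. Among 12000 tested coding genes with a 3′ UTR of at least 100 bases, 1229 (10.2%) hold the word in some transcript. Of those 1229 genes 14.6% were called lower, against 3.41% of the genes without it. Since the word was picked from these same data, this contrast is a description and no separate test. The sets of genes were not matched for 3′ UTR length or number of transcripts. Of the 3 receptors that hold the word, DDR1 was called lower, while MET (−0.09 on the log2 scale) and IGF1R (0.36) were not called. In the transcript with the longest coding sequence, the 3′ UTR of IGF1R holds the word and those of DDR1 and MET do not. Which transcripts these cells use was not examined. What part the word has in the DDR1 value was not tested.

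Levels of the receptors were compared per kilobase of exon (RPKM), with the exon length of all annotated transcripts of a gene merged. Those lengths can differ from the transcripts in these cells, which were not examined. Orders, shares and ratios of RPKM between genes depend on those lengths. AXL, the receptor for the bridging ligand GAS6, was the most abundant receptor, at 288 ± 7.88 RPKM (SD, n = 2) in SCR. MET, the receptor for HGF, followed at 61.1 ± 7.42 RPKM (SD, n = 2), so that AXL exceeded it 4.72-fold. The next group held EGFR at a mean of 27.3 RPKM, DDR2 at 26.3, PDGFRA at 22.1, FGFR1 at 20.9 and PDGFRB at 18.5. Within it the SCR libraries of EGFR overlapped those of DDR2, and those of PDGFRA overlapped those of FGFR1, so the order of these neighbours is not resolved.

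The lowest 3 receptors were ERBB2 at 6.99 RPKM, DDR1 at 5.13 and IGF1R at 3.60 in SCR. In siTLN1 the first 4 places of the order were held by the same receptors. PDGFRB stood above PDGFRA and FGFR1 there, at 20.5 against 19.2 and 18.6 RPKM, and IGF1R at 4.61 RPKM stood above DDR1 at 2.66. By CPM, which takes no length into account, IGF1R stood above DDR1 in SCR already, at means of 50.2 and 46.8. The merged exon length is 13941 bases for IGF1R and 9122 for DDR1. Exon bases of PDGFRA are shared over 16.1% of their length with another gene on the same strand, and those of ERBB2 over 6.93% with genes on the opposite strand. Reads in stretches shared on the same strand cannot be assigned to 1 gene. Counting without strand cannot assign reads in opposite-strand stretches either, so the levels of PDGFRA and ERBB2 are uncertain.

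**Figure D1:**
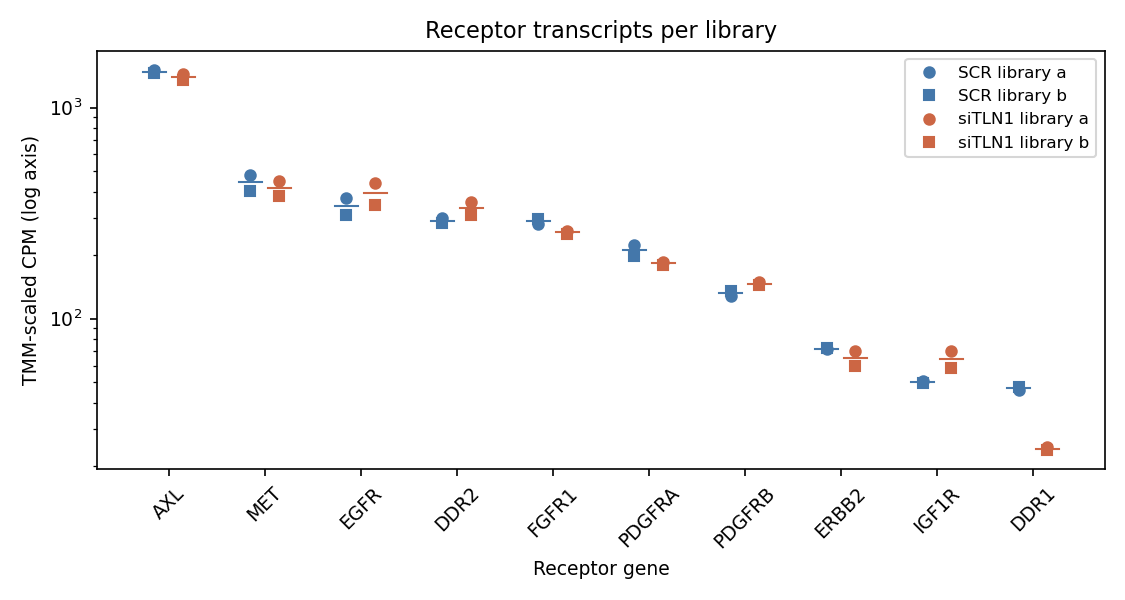
TMM-scaled CPM of each receptor (log axis) in the 2 SCR libraries (blue) and the 2 siTLN1 libraries (orange), with circles for library a, squares for library b and short lines for group means. AXL stands highest, and DDR1 is the receptor whose groups lie farthest apart, near 46 to 48 CPM in SCR and 24 to 25 CPM in siTLN1.

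The discoidin domain receptors bind triple-helical collagen. DDR1 (ENSG00000204580.13; GRCh38, chromosome 6, 30876421 to 30900156, plus strand) is mostly a receptor of epithelial cells, and DDR2 (ENSG00000162733.19; chromosome 1, 162631373 to 162787405, plus strand) of mesenchymal cells. DDR1 stood at 45.8 and 47.7 CPM in SCR libraries a and b and at 24.6 and 23.9 CPM in siTLN1 libraries a and b. Both siTLN1 libraries were far below both SCR libraries, and the replicates lay close together. The group means were 46.8 ± 1.35 CPM (SD, n = 2) and 24.2 ± 0.487 CPM (SD, n = 2), which do not overlap. On the log2 scale DDR1 fell by 0.95 (standard error 0.099), with an adjusted p of 1.88e-05 in edgeR's test over all genes.

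Among all 16137 tested genes, 210 (1.30%) had a fold change as low as that of DDR1 or lower. The value of DDR1 ran from −0.95 to −0.94 over the alternatives with all 4 libraries and from −0.98 to −0.92 when 1 library was left out, and it passed the threshold in each. MIR4640 lies within the gene on the same strand and covers 0.987% of its exon bases. Of the 3 basal epithelial markers tested, KRT14 (log2 fold change −0.81) and KRT17 (−0.91) were called lower, like DDR1. TP63 was not called (−0.19) and its libraries overlapped, while KRT5 had at most 3 counts in any library. The summed level of basal markers was 210 to 231 CPM in SCR and 122 to 124 CPM in siTLN1. Such falls were not particular to basal markers. The mesenchymal markers CDH2 (−0.89) and SPARC (−0.48) were also called lower, and the other 5 mesenchymal markers were not called. The summed luminal markers overlapped between groups, from 135 to 166 CPM in SCR and from 146 to 158 CPM in siTLN1. The part of these cell-state markers in the DDR1 value was not tested.

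DDR2 stood at 300 and 283 CPM in SCR and at 358 and 312 CPM in siTLN1. Its siTLN1 libraries were the higher, without overlap, but the difference of 0.20 on the log2 scale did not pass the test (adjusted p 0.283, edgeR), with a 95% interval from −0.01 to 0.41. It was 0.10 without siTLN1 library a and 0.30 without siTLN1 library b. Per kilobase of exon DDR1 was at 0.186 and 0.205 of the level of DDR2 in SCR and at 0.0835 and 0.0933 in siTLN1. This ratio was lower in both siTLN1 libraries, at 0.453 of the SCR mean. With 2 libraries per group an exact permutation test of such a ratio cannot go below a two-sided p of 0.333, so none was run on the ratios.

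IGF1R (ENSG00000140443.15; chromosome 15, 98648539 to 98964530, plus strand) is the receptor for IGF1 and IGF2 and closely related to the insulin receptor. It stood at 50.6 and 49.9 CPM in SCR and at 70.3 and 58.3 CPM in siTLN1. The groups did not overlap, and siTLN1 library a was the higher of its pair. The log2 fold change of 0.36 (standard error 0.105, 95% interval from 0.13 to 0.58) had an unadjusted p of 0.00354 and an adjusted p of 0.0555 in edgeR's test, just short of the threshold. With total counts in place of TMM scaling it passed (adjusted p 0.0275, edgeR). It also passed without siTLN1 library b (0.49, adjusted p 0.0236), whereas without siTLN1 library a the value was 0.22 (adjusted p 0.553).

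EGFR and ERBB2, of the EGF receptor family, both missed the threshold. EGFR (chromosome 7, 55019017 to 55211628, plus strand) binds EGF-like ligands, and it stood at 373 and 310 CPM in SCR and at 438 and 347 CPM in siTLN1. The libraries of the groups overlapped, and library a was the higher in each group. Its log2 fold change was 0.20 with a 95% interval from −0.06 to 0.47 (adjusted p 0.408, edgeR). The value was 0.03 without siTLN1 library a and 0.34 when SCR library a was left out. ERBB2 (chromosome 17, 39687914 to 39730426, plus strand), which has no known ligand and acts as the partner of the other family members, stood at 71.6 and 72.7 CPM in SCR and at 70.3 and 59.8 CPM in siTLN1. Its siTLN1 libraries were the lower, the first of them by little. The log2 fold change was −0.15 with an interval from −0.36 to 0.06 (adjusted p 0.453, edgeR), and it ran from −0.27 without siTLN1 library a to −0.033 without siTLN1 library b.

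MET (chromosome 7, 116672196 to 116798386, plus strand) stood at 480 and 404 CPM in SCR and at 450 and 381 CPM in siTLN1. Here too library a was the higher in both groups, and the groups overlapped. The log2 fold change of −0.09 had an interval from −0.32 to 0.15 (adjusted p 0.736, edgeR), and its sign turned when SCR library a (0.042) or siTLN1 library b (0.03) was left out. AXL (chromosome 19, 41219223 to 41261766, plus strand) stood at 1510 and 1452 CPM in SCR and at 1438 and 1344 CPM in siTLN1. Its groups were separate by a narrow margin. The log2 fold change was −0.09 with an interval from −0.31 to 0.13 (adjusted p 0.699, edgeR), so a fall of the AXL transcript by more than 19.1% lay outside the interval. It was −0.14 without siTLN1 library a and −0.038 without siTLN1 library b.

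PDGFRA (chromosome 4, 54229280 to 54298245, plus strand) and PDGFRB (chromosome 5, 150113839 to 150155872, minus strand) bind the platelet-derived growth factors, which makes them receptors best known from fibroblasts and pericytes. PDGFRA stood at 223 and 199 CPM in SCR and at 185 and 181 CPM in siTLN1, lower without overlap. PDGFRB stood at 128 and 136 CPM in SCR and at 149 and 144 CPM in siTLN1, higher without overlap. Neither passed the test. The log2 fold changes were −0.21 for PDGFRA (adjusted p 0.235, edgeR) and 0.15 for PDGFRB (adjusted p 0.398, edgeR). That of PDGFRA was −0.12 without SCR library a. The RPKM of PDGFRA was 1.30 and 1.10 times that of PDGFRB in SCR and 0.932 and 0.936 times in siTLN1.

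FGFR1 (chromosome 8, 38400215 to 38468834, minus strand), a receptor for fibroblast growth factors, stood at 281 and 297 CPM in SCR and at 262 and 253 CPM in siTLN1. Its siTLN1 libraries were the lower, without overlap, and the log2 fold change of −0.17 had an interval from −0.36 to 0.03 (adjusted p 0.338, edgeR). The libraries of 8 of the 10 receptors did not overlap between groups. That held for 7818 of all 16137 tested genes (48.4%), and 3 receptors (DDR1, IGF1R and PDGFRA) had an unadjusted p under 0.05, against 19.8% of tested genes.

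**Figure D2:**
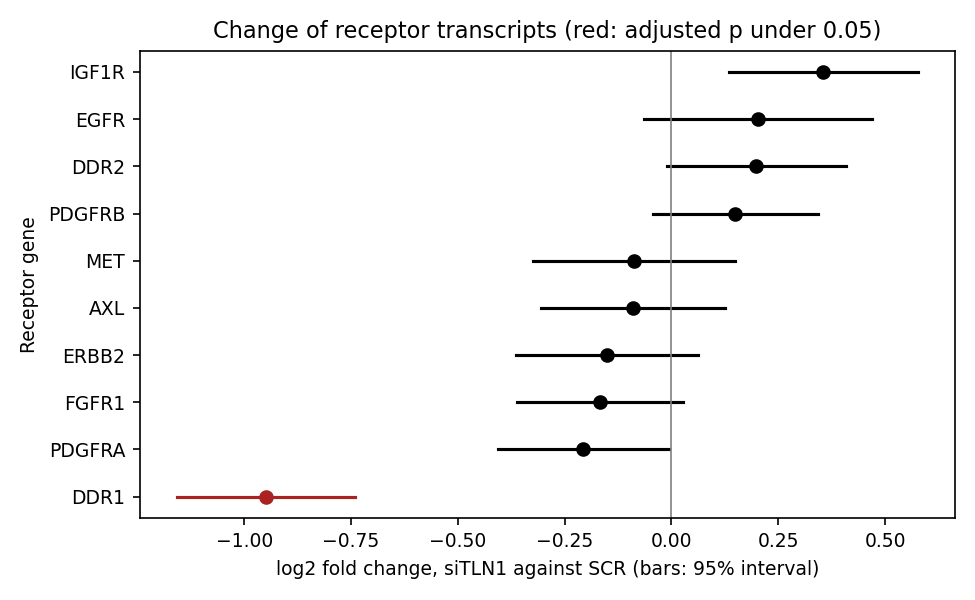
Log2 fold change of each receptor in siTLN1 against SCR with its 95% interval, ordered by value, with red for an adjusted p under 0.05. The interval of DDR1 lies from −1.16 to −0.74, apart from those of the other 9 receptors, whose values run from −0.21 to 0.36.

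The other receptor tyrosine kinases were set beside these 10 to show their place among the 58 human receptors listed, of which 44 were tested. By SCR RPKM the 10 receptors held ranks from 1 to 20 and 74.4% of the summed level, AXL alone 44.7%. The receptors outside the list with the highest levels were EPHA2, an ephrin receptor, at 60.1 ± 6.78 RPKM (SD, n = 2) and PTK7, a Wnt-linked pseudokinase, at 24.3 ± 1.30 RPKM (SD, n = 2). EPHA2 had a log2 fold change of 0.01 (adjusted p 0.983, edgeR) and PTK7 one of 0.31 (adjusted p 0.0603, edgeR). INSR, the insulin receptor and closest relative of IGF1R, had 8 and 11 counts in SCR and 5 and 11 counts in siTLN1 and was not tested.

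Of the 34 other receptors tested, 2 were called higher and 1 lower (8.82% called, beside 6.07% of all tested genes), and 31 did not pass. The median log2 fold change was 0.16, beside 0.0033 over all tested genes, and it was 0.063 without siTLN1 library a. EPHB1 rose from 5.60 and 4.8 CPM to 8.52 and 8.02 CPM (log2 fold change 0.67, adjusted p 0.0111, edgeR), and 5.27% of its exon bases lie opposite KY. MERTK, a relative of AXL that clears dying cells, rose from 0.818 and 1.12 CPM to 2.12 and 1.83 CPM (1.01, adjusted p 0.0276). FLT1, a VEGF receptor, fell from 0.598 and 0.660 CPM to 0.165 and 0.234 CPM (−1.61, adjusted p 0.0399). MERTK and FLT1 lay at the low end of detection, and both were far below DDR1 in level.

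With 1 library left out the direction of these 3 genes stayed and some calls were lost. The log2 fold change of FLT1 ran from −1.91 to −1.41, with adjusted p from 0.0642 to 0.228, so its call was lost whichever library was removed. MERTK ran from 0.81 to 1.26 and lost its call without SCR library a (adjusted p 0.133) or siTLN1 library a (0.179). EPHB1 ran from 0.56 to 0.78 and lost its call without SCR library b (adjusted p 0.0581) or siTLN1 library a (0.102).

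**Figure D3:**
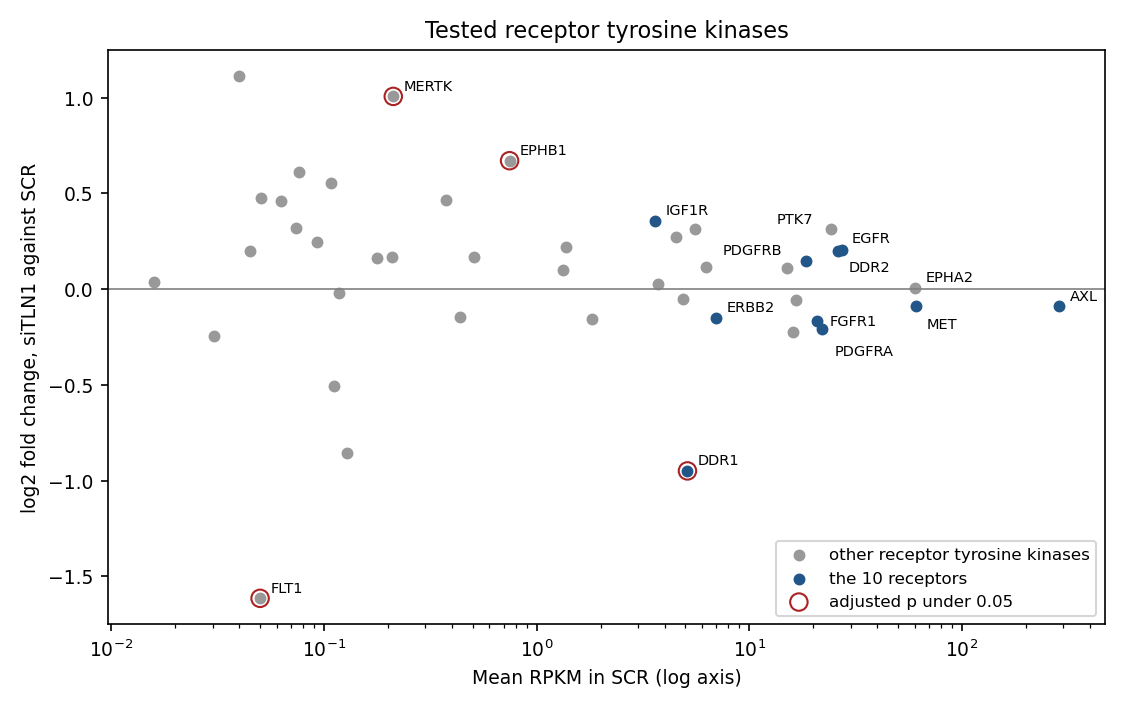
Each point is 1 of the 44 tested receptor tyrosine kinases, with the mean SCR level in RPKM (log axis) against the log2 fold change in siTLN1, blue for the 10 receptors, grey for the others and a red ring for an adjusted p under 0.05. DDR1 is the only ringed receptor above 1 RPKM, and EPHB1, MERTK and FLT1 are ringed at lower levels.

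Most ligands of these receptors were scarce or did not pass the test. Of 11 EGF-family ligands 3 were tested, and none was called. HBEGF, a membrane-bound EGFR ligand, stood at 9.11 RPKM in SCR and 8.0 RPKM in siTLN1, and NRG1, which acts through ERBB3 and ERBB4, at 4.37 and 4.0 RPKM. TGFA had no count in any library and AREG 6 to 16 counts. Of 21 ligands of the other receptors 14 were tested, 13 were not called and 1 was called lower (7.14%, beside 6.07% of all tested genes). HGF, the ligand of MET, had 6 to 9 counts per library, and IGF1 and IGF2 had at most 3. Low counts of IGF1 and IGF2 are uncertain, since IGF1 shares 82.4% of its exon bases with a gene on the other strand and IGF2 shares 70.7% with genes on its own strand.

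Collagens, the ligands of DDR1 and DDR2, were the most abundant ligand transcripts. COL1A1 stood at 1246 ± 67.1 RPKM (SD, n = 2) in SCR with a log2 fold change of −0.19 (adjusted p 0.444, edgeR), and COL1A2 at 770 ± 3.64 RPKM (SD, n = 2) with −0.07 (adjusted p 0.809, edgeR). COL5A1, a chain of fibril-nucleating collagen V, fell from 1402 and 1490 CPM to 1167 and 1002 CPM (−0.42, adjusted p 0.0290, edgeR). That call was lost without SCR library a (0.0538), SCR library b (0.185) or siTLN1 library b (0.248). The 2 most abundant IGF-binding proteins, which hold IGFs in the extracellular space, were IGFBP3 at 145 RPKM and IGFBP4 at 127 RPKM in SCR, and 0 of 6 tested genes of that list were called in edgeR's test.

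Inside the cell, the adaptor and relay genes gave 2 lower calls among 32 tested (6.25%, beside 6.07% of all tested genes), with a median of −0.05. SHC1, an adaptor that couples receptors to RAS, fell from 212 and 223 CPM to 166 and 173 CPM (−0.36, adjusted p 0.0266, edgeR). AKT1, a kinase of the PI3K relay, fell from 160 and 151 CPM to 119 and 114 CPM (−0.42, adjusted p 0.0117, edgeR). SHC1 shares 7.72% of its exon bases with a gene on the same strand and 7.51% with one on the opposite strand, and AKT1 shares 5.94% with the opposite strand, so both levels carry some uncertainty. The AKT1 call was lost without siTLN1 library a (0.0902) or b (0.0908), and the SHC1 call without SCR library b (0.140), siTLN1 library a (0.256) or siTLN1 library b (0.0908). NRAS, the other abundant gene of the list at 41.6 RPKM, had a log2 fold change of 0.11 (adjusted p 0.613, edgeR). IRS2 had at most 1 count in any library, and PIK3R2, which shares 86.5% of its exon bases with another gene, 2 to 6 counts, so neither was tested.

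The genes that remove, shed or dephosphorylate receptors held 4 higher calls and no lower one among 17 tested, with a median of 0.05. That is 23.5% called, beside 6.07% of all genes. By sign 11 of the 17 were higher and 6 lower. The list was drawn up with earlier results of these data known, so its share of calls is a description and no separate test. GRB14, an adaptor that inhibits insulin and related receptors, rose from 1.42 and 1.64 CPM to 4.18 and 4.17 CPM, a log2 fold change of 1.45 (adjusted p 0.000284, edgeR). PTPRJ, a receptor-type phosphatase that acts on several of these receptors, rose from 78.7 and 76.6 CPM to 122 and 107 CPM (0.56, adjusted p 0.00205). CBLB, a ubiquitin ligase for activated receptors, rose from 111 and 106 CPM to 156 and 146 CPM (0.48, adjusted p 0.00501). ERRFI1, a feedback inhibitor of EGFR and ERBB2, rose from 74.9 and 77.1 CPM to 93.5 and 100 CPM (0.35, adjusted p 0.0338), and 3.71% of its exon bases lie opposite another gene.

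GRB14 passed with any 1 library left out. The calls of PTPRJ (0.0620) and CBLB (0.0906) were lost without siTLN1 library a, and that of ERRFI1 was lost when any 1 library was left out, with adjusted p from 0.0674 to 0.212. The most abundant genes of this list were the phosphatases PTPN1 and PTPN12, at 28.4 and 21.2 RPKM in SCR, with log2 fold changes of 0.0037 and 0.05 that did not pass.

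The list of ERK feedback and output genes gave 1 call among 17 tested (5.88%, beside 6.07% of all tested genes), with a median of −0.0077. DUSP4, a nuclear phosphatase that switches off ERK, fell from 10.4 and 9.68 CPM to 5.11 and 4.94 CPM, a log2 fold change of −1.0 (adjusted p 0.000313, edgeR), and it passed with any 1 library left out. The word printed above lies in the 3′ UTR of 1 of its 2 coding transcripts. It also lies in that of SPRED1, an inhibitor of RAS-ERK signalling that was not called (−0.06). Genes of the other lists also hold it in some coding transcript without being called, among them BRAF, CRKL, FRS2, GAB1, GRB10, IGF2R, PIK3CA and PTPN11. Among the other list genes called lower, AKT1, SHC1, COL5A1 and FLT1, none holds it. Among the markers called lower, CDH2 (−0.89) holds it in 1 of 2 coding transcripts, and SPARC, KRT14 and KRT17 do not hold it. The markers ZEB1 (−0.09), KRT8 (−0.24) and PTPRC (−0.28) hold it in some coding transcript and were not called. The most abundant genes of the list were FOSL1, an AP-1 subunit, at 210 RPKM in SCR and 209 RPKM in siTLN1, and CCND1, cyclin D1, at 99.4 and 116 RPKM. Neither passed the test (adjusted p 0.980 and 0.188, edgeR).

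**Figure D4:**
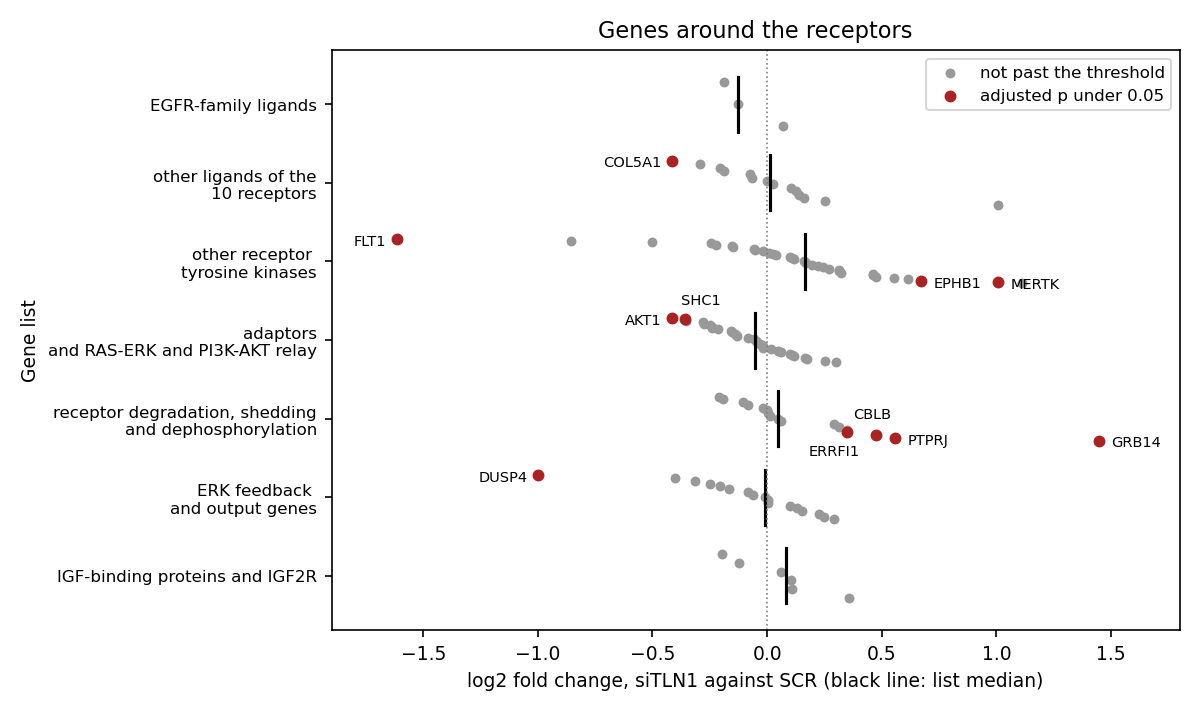
Log2 fold changes in siTLN1 against SCR for the tested genes of 7 lists around the receptors, 1 point per gene and spread vertically by rank, with a black line at each list median and named red points for an adjusted p under 0.05. The 4 red points of the removal and inhibition list (GRB14, PTPRJ, CBLB and ERRFI1) all lie above 0, and list medians run from −0.13 to 0.16.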

How the data were processed

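Polyadenylated RNA was sequenced from 2 SCR and 2 siTLN1 libraries, grouped by their titles. The authors deposited raw counts per gene from featureCounts 2.0.0 on GENCODE 33 (GRCh38), counted by read pairs with no strand option, per the file headers, although the labels' protocols name a stranded kit. The submitters' processing notes name STAR 2.7.9a and edgeR 3.34.1. The exon length column of that deposited table is a unit other than counts, in bases. The authors also deposited log2 CPM values for 16137 genes, and 100% of them match, to 6 decimals and after sorting inside each group, log2 CPM recomputed with TMM from the counts.

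Genes were filtered with filterByExpr (minimum count 10, minimum total 15) and compared with edgeR 4.0.16 (R 4.3.3; TMM, estimateDisp, robust glmQLFit in its current form, glmQLFTest), with Benjamini-Hochberg adjustment over 16137 genes and a threshold of 0.05. Standard errors follow from the quasi-likelihood fit. Symbols matched 16085 tested genes. The receptors, lists and word were chosen with earlier results of these data known. Named beside the receptors and TLN1 are up to 4 called genes and the 2 most abundant by RPKM of each list. Outside that rule INSR, TGFA, AREG, HGF, IGF1, IGF2, IRS2 and PIK3R2 were named as scarce genes of the lists. Marker genes, SPRED1 and the other uncalled list genes that hold the word were named after their values were seen. Alternatives were RLE scaling, total counts, 2 other filters, DESeq2 1.42.0, limma 3.58.1 (voom, and trend on the deposited values with and without a replicate block) and leaving out each library. The procedures were tested on simulated data. A planned comparison of receptor proteins was not run.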

Additional observations from a re-analysis of the deposited data

How the results depend on the processing

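DDR1 kept its direction and its call under all 12 alternatives. Over the alternatives with all 4 libraries, no receptor changed sign. The number of receptors called was 1, but 2 with total counts only (IGF1R added) and 6 with the replicate block in limma-trend, where EGFR (0.20), DDR2 (0.20), IGF1R (0.35), PDGFRA (−0.20) and FGFR1 (−0.17) also passed, with adjusted p from 2.19e-05 to 0.0359. In that fit 3645 of all genes (22.6%) were called and 53.1% of them were lower, beside 966 genes and 61.7% in the same limma-trend fit without the block. Equal replicate numbers correlated at 0.19 in their deviations across all genes and at 0.54 across the 10487 genes of at least 5 CPM, among them all 10 receptors. No label states a shared preparation, and 2 pairs are too few to establish one. With 1 library left out, receptors called ran from 1 to 2 and genes called from 324 (without siTLN1 library a) to 1100, on the assumption that the lone sample varies like the other group. With 1 library left out the log2 fold change of MET ran from −0.21 (without siTLN1 library a) to 0.042 (without SCR library a), and it was also above 0, at 0.03, without siTLN1 library b; the cause was not tested. Without a filter, 663 of 32708 genes were called, and the calls of ERRFI1, SHC1 and FLT1 were lost (adjusted p 0.0600, 0.0612 and 0.0630). DESeq2 did not call MERTK (0.0997) and gave no adjusted p for FLT1. With 1 library left out, list medians ran from −0.11 to 0.13 for the other ligands and from −0.12 to −0.046 for the relay. They ran from 0.012 to 0.10 for the removal genes and from −0.046 to 0.0066 for the ERK feedback and output genes. Among the called list genes, counts were lowest for FLT1, at 6 to 23 counts per library, and MERTK, at 26 to 86.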
